A study of Homo sapiens with 9 samples.

Results

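Tetraspanins are small membrane proteins that cross the membrane 4 times and gather integrins, immunoglobulin-domain proteins and proteases around them into membrane domains. They are modified with palmitate on cysteines next to the membrane, and this fatty acid helps to hold the domains together. Some members, CD9, CD63 and CD81 above all, are carried on exosomes, the small vesicles released from endosomes. A subgroup with 8 cysteines in the large outer loop, named TspanC8, escorts the protease ADAM10 to the cell surface, where ADAM10 cuts Notch and other receptors.

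The tetraspanin genes were taken by symbol: every gene named TSPAN with a number, together with CD9, CD37, CD53, CD63, CD81, CD82, CD151, UPK1A, UPK1B, PRPH2 and ROM1, provided that it had a protein-coding transcript. This gave 33 genes of the 58219 in the files, 19625 of which had a protein-coding transcript. The rule itself used no measured value, but it was set with earlier results of these data known.

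RNA-seq was done on MDA-MB-231, an established human breast cancer line without oestrogen, progesterone or HER2 receptors, with 3 libraries in each of 3 groups. The shAPT1 cells carried a lentiviral short hairpin RNA against APT1 and were selected with puromycin. APT1 is the thioesterase, encoded by LYPLA1, that takes palmitate off proteins. The APT1wt cells overexpressed wild-type APT1 from a lentivirus, and the control cells carried a lentiviral scrambled RNA, which served as the control of both. An empty overexpression vector is not among the samples, and neither the hairpin sequences nor whether a line was 1 clone or a pool is given. Whether the replicates were grown as separate cultures is not given, and the p-values then measure only the spread between libraries, which may be technical.

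The libraries held 12381931 to 18667383 estimated reads. LYPLA1 had 38.2, 30.5 and 36.7 TPM in shAPT1, 169, 171 and 170 TPM in APT1wt, and 87.1, 92.7 and 80.5 TPM in control libraries, where TPM is a level corrected for transcript length and library size. Its log2 fold change was -1.29 ± 0.07 in shAPT1 (adjusted p = 2.0e-08) and 0.60 ± 0.06 in APT1wt (adjusted p = 1.1e-05), both against control, with the standard error after the sign, as for every fold change below. The 6 genes taken as markers of this line (VIM, CD44, CAV1, KRT18, AXL and MSN) summed to 4322 to 4742 TPM in shAPT1, 3955 to 4246 in APT1wt and 4224 to 4788 in control. Of 4 genes taken as absent or low in the line, ESR1 and PGR stayed below 1 TPM in every library. GATA3 averaged 9.51 TPM in shAPT1, 7.32 in APT1wt and 9.45 in control. CDH1 averaged 0.791, 1.30 and 0.775 TPM in the same order, with 2.76 TPM in APT1wt replicate 3.

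**Figure D1:**
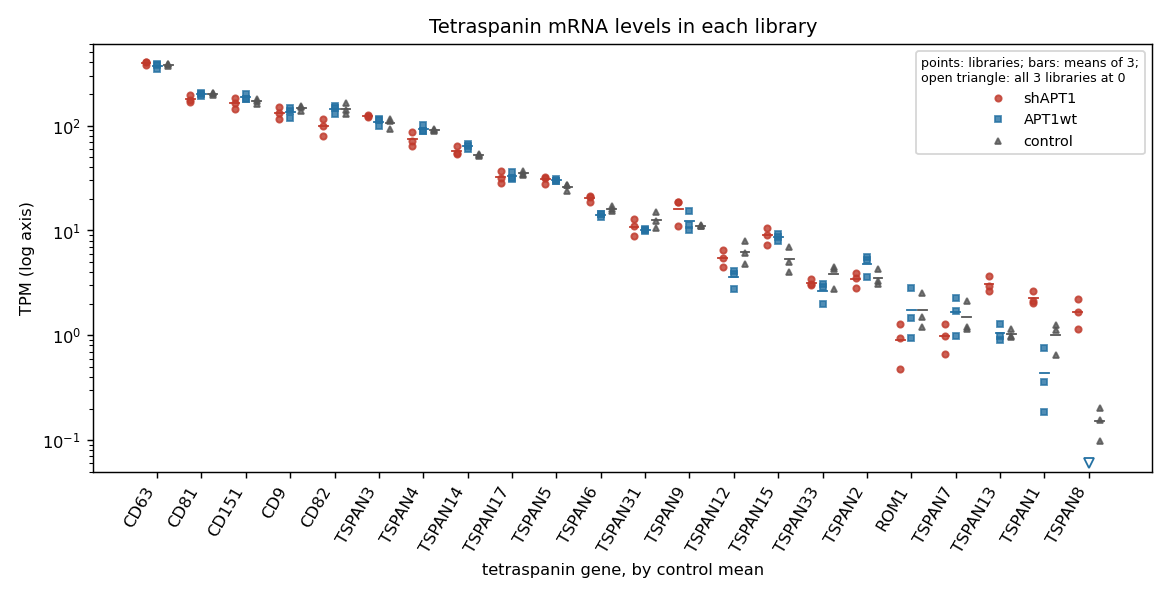
Level of the 22 tetraspanin genes with a mean of at least 1 TPM in a group, on a logarithmic axis, in order of their control mean. Points are libraries and bars are means of 3; CD63 leads in each group at 371 to 394 TPM, and the open triangle marks TSPAN8 in APT1wt, at 0 in all 3 libraries.

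Together the tetraspanins summed to 1261 to 1448 TPM in shAPT1, 1329 to 1492 TPM in APT1wt and 1354 to 1468 TPM in control, ranges that overlap. In RNA from whole cultures, fewer cells with a transcript and less of it per cell cannot be told apart. The family took 0.103% to 0.119%, 0.112% to 0.123% and 0.118% to 0.120% of reads in the same order. A mean of at least 1 TPM in a group was reached by 22 of the 33 genes (24 at 0.5 TPM, 19 at 2 TPM), and 13 had at least 10 TPM in every group. The plot of levels by library shows how steeply they fall off. The 8 most abundant genes, CD63, CD81, CD151, CD9, CD82, TSPAN3, TSPAN4 and TSPAN14, made up 89.6% of the family's TPM in shAPT1, 91.2% in APT1wt and 91.1% in control.

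In the order of levels in control cells, CD63 (382 ± 9.45 TPM; SD, n = 3) stood above CD81, CD81 above CD151, and CD151 above CD9 with no overlap between libraries of neighbours. CD9 and CD82 overlapped, as did TSPAN3 and TSPAN4. In shAPT1 cells TSPAN3 (124 ± 2.19 TPM) stood above CD82 (98.1 ± 18.0 TPM) with no overlap of their libraries, whereas in control cells CD82 (144 ± 18.6 TPM) stood above TSPAN3 (107 ± 12 TPM), again with no overlap. The order of those 2 genes was also CD82 above TSPAN3 in APT1wt, at 144 ± 13.6 and 109 ± 8.97 TPM.

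A gene was tested if it passed a filter on low counts, which kept 15233 genes, and was called if its adjusted p was under 0.05 over all of them. Of the 33 tetraspanins 23 were tested. TSPAN8 passed the filter through the shAPT1 libraries alone, and TSPAN1 through 3 shAPT1 and 2 control libraries, so for these the filter favours a difference. ROM1 and TSPAN10 passed it in 4 and 6 libraries, and the other 19 in all 9. In shAPT1 against control 9 of the 23 were called, 6 higher and 3 lower, in a comparison that called 24.4% of all tested genes. In APT1wt against control 6 were called, 4 higher and 2 lower, against 23.4% of all genes. In shAPT1 against APT1wt 10 were called, 5 higher and 5 lower, against 25.1% of all genes. Scaling by library totals alone left 8 calls in this last comparison, 5 higher and 3 lower, where 2628 of all genes were higher and 1327 lower. The median log2 change of the tested tetraspanins was 0.04, -0.04 and -0.07 in these comparisons, beside 0.00 over all tested genes in each. Fold changes come from scaled read counts with no correction for transcript length. Small ones can therefore differ in sign from the TPM means, as for CD63, TSPAN12, TSPAN15 and ZDHHC2 in some comparisons below.

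**Figure D2:**
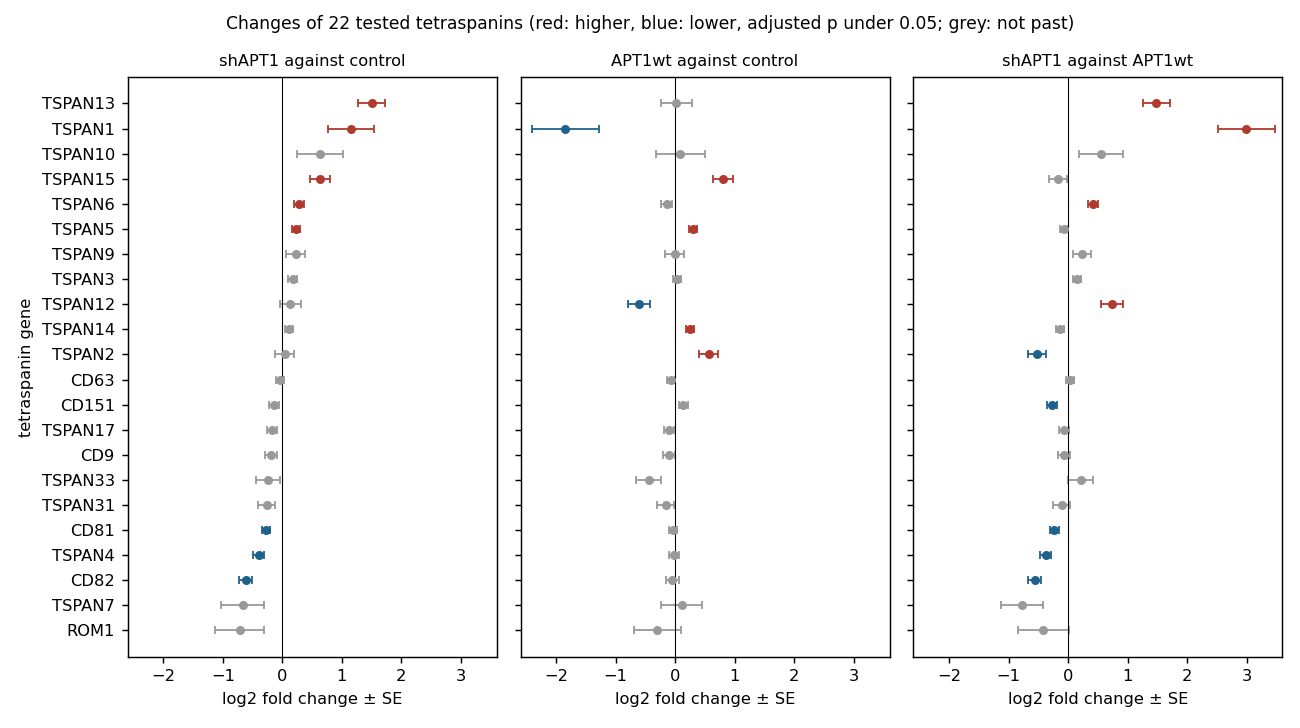
Log2 fold change with its standard error for 22 tested tetraspanins in the 3 comparisons, ordered by the change in shAPT1 against control, red for higher and blue for lower at an adjusted p under 0.05. TSPAN8 is not drawn, since its control and APT1wt libraries hold 1 or 0 reads each. TSPAN13 at the top moved by 1.50 and CD82 near the bottom by -0.62 in shAPT1 against control.

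The 25 calls fell on 13 genes, and TSPAN1 was the only gene called in all 3 comparisons. No APT1wt library of TSPAN1 passed the filter, so its calls are weaker support than their number implies. CD9 and CD63 were called in none of them. The calls of CD82, TSPAN4 and TSPAN13 in shAPT1 against both other groups and of TSPAN15 in APT1wt against control held under every alternative processing in which the gene was tested. Those of TSPAN8, and of TSPAN1 in shAPT1 against APT1wt, did too. In those comparisons, though, the filter kept the gene by the group in which it is high. Since the 3 comparisons share their libraries in pairs, a gene called in more than 1 of them is not an independent repeat. TPM of the groups did not overlap for 9, 8 and 8 of the 23 genes in the order above, beside 31.1%, 35.0% and 32.9% of all tested genes. Leaving out control replicate 3 took the calls by adjusted p to 5 in shAPT1 against control and 3 in APT1wt against control. Over all genes, 2616 and 2466 of 15423 were then called, beside 3719 and 3568 of 15233 in the reported fit. Leaving out APT1wt replicate 3 took the tetraspanin calls in APT1wt against control to 2, and those of all genes to 2298 of 15340. An offset for the average transcript length in each library left 4, 3 and 6 tetraspanin calls in the 3 comparisons. With it, 2308, 2217 and 2363 of all 15233 genes were called. Fewer calls in these settings are therefore not particular to tetraspanins.

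The promoters of 4 called genes are shown to set them beside each other: TSPAN8 and TSPAN13, the genes with the largest rise in shAPT1 against control, TSPAN15, higher in both shAPT1 and APT1wt, and CD82, the abundant gene that fell most in shAPT1. Each window runs from 250 bases before to 50 bases after a RefSeq transcription start on GRCh38.p14, 5′ to 3′ on the gene's strand; capitals mark the CCAAT box (CCAAT), the GC box (GGGCGG) and the core bound by CSL, the DNA-binding partner of Notch (TGGGAA), on either strand. The windows lie at chr12:71157950-71158249 on the minus strand for TSPAN8, chr7:16753505-16753804 on the plus strand for TSPAN13, chr10:69451215-69451514 on the plus strand for TSPAN15 and chr11:44565413-44565712 on the plus strand for CD82.
TSPAN8: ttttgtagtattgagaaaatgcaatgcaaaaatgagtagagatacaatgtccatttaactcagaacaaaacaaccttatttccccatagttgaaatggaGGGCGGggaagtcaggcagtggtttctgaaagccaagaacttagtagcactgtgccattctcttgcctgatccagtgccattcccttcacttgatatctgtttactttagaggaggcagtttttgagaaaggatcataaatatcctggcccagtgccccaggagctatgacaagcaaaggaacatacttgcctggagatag
TSPAN13: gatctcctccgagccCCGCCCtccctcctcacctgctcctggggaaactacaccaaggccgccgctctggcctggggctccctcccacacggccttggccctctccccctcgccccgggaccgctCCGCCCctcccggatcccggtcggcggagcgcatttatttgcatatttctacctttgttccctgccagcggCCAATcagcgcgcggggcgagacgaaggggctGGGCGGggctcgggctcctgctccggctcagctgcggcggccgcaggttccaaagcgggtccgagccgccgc
TSPAN15: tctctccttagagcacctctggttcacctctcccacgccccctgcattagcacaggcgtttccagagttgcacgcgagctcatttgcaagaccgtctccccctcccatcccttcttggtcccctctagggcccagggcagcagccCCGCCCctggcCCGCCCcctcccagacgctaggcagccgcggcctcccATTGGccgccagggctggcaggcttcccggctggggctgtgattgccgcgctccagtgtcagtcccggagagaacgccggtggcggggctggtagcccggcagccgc
CD82: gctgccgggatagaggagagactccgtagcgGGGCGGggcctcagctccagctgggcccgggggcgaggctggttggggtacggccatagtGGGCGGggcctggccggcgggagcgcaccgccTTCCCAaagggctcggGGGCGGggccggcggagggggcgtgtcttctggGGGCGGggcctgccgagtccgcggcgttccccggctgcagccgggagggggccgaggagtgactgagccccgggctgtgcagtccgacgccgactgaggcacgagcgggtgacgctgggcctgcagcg

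The TSPAN8 window has 42.3% G and C, with 1 GC box. The TSPAN13 window has 71.3%, 1 CCAAT box and 3 GC boxes, the TSPAN15 window 69.0%, 1 CCAAT box and 2 GC boxes, and the CD82 window 76.7%, 4 GC boxes and 1 CSL core. Over all 35116 RefSeq windows the median was 58.7%, and 34.6% held a CCAAT box, 45.0% a GC box and 24.0% a CSL core. Of the 45 windows found for 25 tetraspanins, 11 held a CCAAT box, 27 a GC box and 9 a CSL core; several windows belong to 1 gene and share bases. The TATA box (TATAAA) stands in 11.5% of all windows, the AP-1 site (TGANTCA) in 7.7% and a core bound by TCF factors (CTTTGAT) in 2.6%, and none of these occurs in the 4 windows shown. These are matches of letters and say nothing of binding.

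The exosome and endosome tetraspanins were led by CD63, which sits in late endosomes and lysosomes and is a common exosome marker (chr12:55725323-55729707, minus strand, GRCh38). It had 377, 401 and 405 TPM in shAPT1, 347, 376 and 389 in APT1wt, and 371, 389 and 386 in control. The 3 groups overlapped, and the log2 fold changes were -0.05 ± 0.07 in shAPT1 (adjusted p = 0.67) and -0.07 ± 0.07 in APT1wt (adjusted p = 0.51) against control, and 0.02 ± 0.07 between them (adjusted p = 0.84). CD9, which clusters with integrins and also marks exosomes, had 115, 149 and 131 TPM in shAPT1, 119, 146 and 137 in APT1wt, and 137, 153 and 151 in control. Its groups overlapped too, at -0.18 ± 0.10 (adjusted p = 0.22), -0.11 ± 0.10 (adjusted p = 0.47) and -0.07 ± 0.10 (adjusted p = 0.66) in the same order. Without shAPT1 replicate 2, the highest of its group, CD9 was called lower in shAPT1 against control, at -0.32 (adjusted p = 0.033).

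CD81, a receptor for hepatitis C virus (chr11:2376177-2397419, plus strand), had 166, 177 and 197 TPM in shAPT1, 190, 205 and 201 in APT1wt, and 196, 204 and 206 in control. It was lower in shAPT1 than in control by -0.27 ± 0.07 on the log2 scale (adjusted p = 0.013) and lower than in APT1wt by -0.23 ± 0.07 (adjusted p = 0.029), with 1 shAPT1 library inside the range of each other group. The first call was lost without control replicate 3 (-0.26, adjusted p = 0.052) and with the length offset (-0.23, adjusted p = 0.052). The second was lost without shAPT1 replicate 1 or 2 (-0.15 and -0.25, adjusted p = 0.053 and 0.054) and without APT1wt replicate 2 or 3 (adjusted p = 0.09 and 0.11). It also failed with library totals alone (-0.17, adjusted p = 0.10), the length offset (adjusted p = 0.058), the 2 groups alone (adjusted p = 0.062) and the deposited table (adjusted p = 0.050). Against control APT1wt differed by -0.04 ± 0.07 (adjusted p = 0.73).

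TSPAN6, which acts in the sorting of cargo into exosomes through syntenin (chrX:100627109-100639991, minus strand), had 21.3, 20.7 and 18.8 TPM in shAPT1, 14.2, 14.4 and 13.5 in APT1wt, and 15.9, 17.0 and 15.3 in control. The 3 groups did not overlap. It was higher in shAPT1 than in APT1wt by 0.42 ± 0.09 (adjusted p = 0.0026) and higher than in control by 0.27 ± 0.09 (adjusted p = 0.032), while APT1wt differed from control by -0.15 ± 0.09 (adjusted p = 0.25). The call against control was lost in 10 of 20 alternatives: without any 1 of the control libraries (adjusted p = 0.061, 0.077 and 0.12) or shAPT1 replicate 1 or 2 (adjusted p = 0.056 and 0.12), by DESeq2 (adjusted p = 0.060), with no filter (adjusted p = 0.064), in a fit of the 2 groups alone (adjusted p = 0.060), with the length offset (adjusted p = 0.093) and in the deposited table (adjusted p = 0.092).

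TSPAN8, a tetraspanin of intestinal and pancreatic epithelium and of exosomes from carcinomas (chr12:71125085-71441898, minus strand), was barely present outside shAPT1. It had 19, 20 and 14 reads in the shAPT1 libraries, 0, 0 and 0 in APT1wt, and 1, 1 and 1 in control. On the TPM scale this was 2.20, 1.69 and 1.15 in shAPT1, 0 in each APT1wt library, and 0.0988, 0.201 and 0.156 in control. Corrected for depth, its reads summed over shAPT1 were 15.5 times those in control (95% exact interval 5.01 to 77.3, counting error only). They were 18.2-fold higher than in APT1wt, with 3 reads over the APT1wt group taken as its limit. The counting error of the shAPT1 reads is not in that value. No p is given, since the gene entered the test through the shAPT1 libraries alone, and for the same reason the interval is no test. APT1wt and control were both at or under that limit, so no fold is given between them. In shAPT1 its mean TPM was below those of TSPAN13 and TSPAN1, with libraries that overlapped those of TSPAN1.

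**Figure D3:**
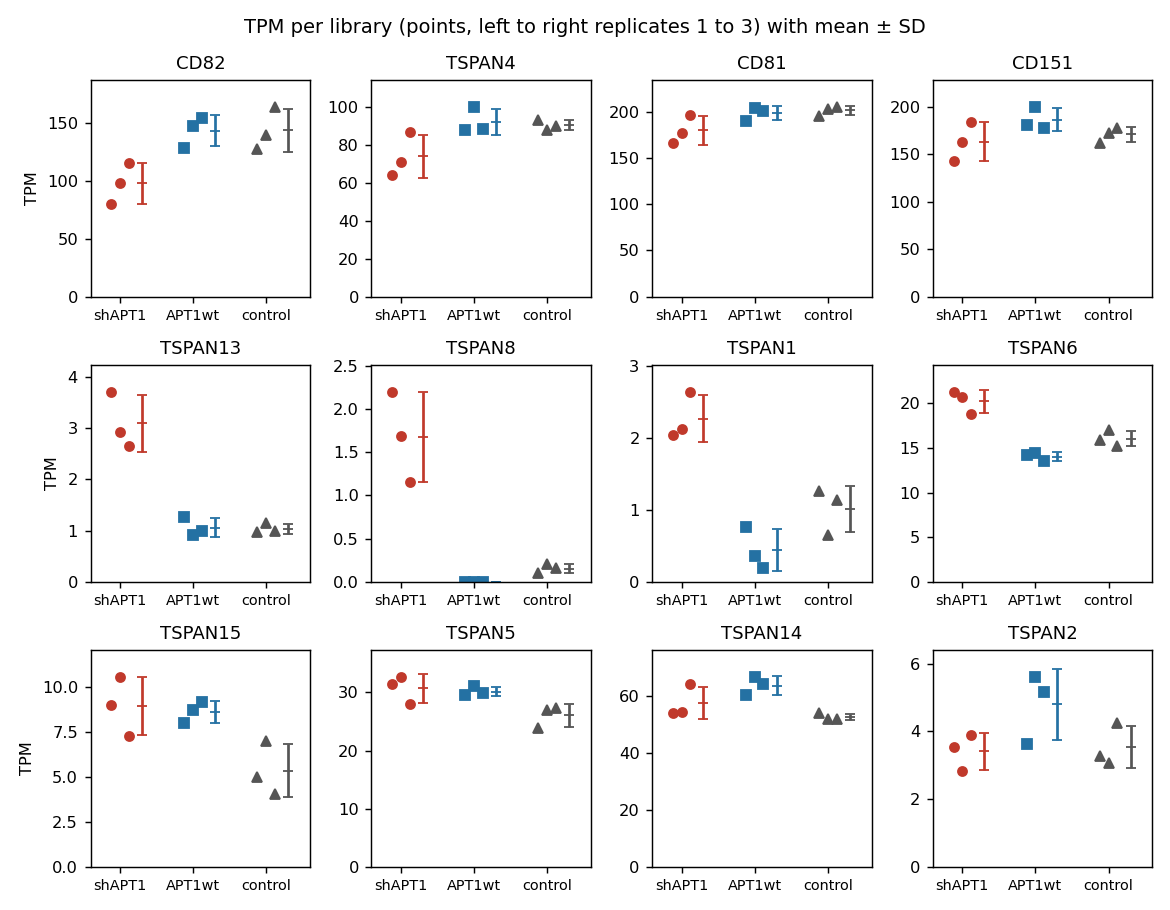
TPM in each library for 12 tetraspanins, with shAPT1, APT1wt and control from left to right, replicates 1 to 3 as points in order, and mean ± SD beside them; each panel starts at 0 and has its own scale. CD82 lies at 80.0 to 116 TPM in shAPT1 and at 128 to 164 in control, and TSPAN13 at 2.65 to 3.71 in shAPT1 and at 0.974 to 1.15 in control.

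Among the tetraspanins that bind integrins or shape adhesion and migration, CD82 changed most among the abundant genes. CD82, also named KAI1 and known as a suppressor of metastasis (chr11:44564427-44620363, plus strand), had 80.0, 98.4 and 116 TPM in shAPT1, 129, 148 and 155 in APT1wt, and 128, 140 and 164 in control. All shAPT1 libraries lay below those of both other groups. It fell by 0.62 ± 0.11 on the log2 scale in shAPT1 against control (adjusted p = 0.00099) and by 0.56 ± 0.11 against APT1wt (adjusted p = 0.0019). APT1wt differed from control by -0.05 ± 0.11 (adjusted p = 0.77). Both calls held under every alternative, with adjusted p of at most 0.0083 against control.

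TSPAN4, a component of migrasomes, the vesicles left on the retraction fibres of moving cells (chr11:842808-867116, plus strand), had 64.0, 71.3 and 86.7 TPM in shAPT1, 88.0, 100.2 and 88.3 in APT1wt, and 93.4, 88.2 and 90.2 in control. Its shAPT1 libraries also lay below all others. It fell by 0.40 ± 0.09 in shAPT1 against control (adjusted p = 0.0057) and by 0.38 ± 0.09 against APT1wt (adjusted p = 0.0077), and APT1wt differed from control by -0.02 ± 0.09 (adjusted p = 0.90).

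CD151, which holds the laminin-binding integrins α3β1, α6β1 and α6β4 in tetraspanin domains (chr11:832843-839831, plus strand), had 142, 163 and 184 TPM in shAPT1, 181, 199.9 and 178 in APT1wt, and 162, 172 and 178 in control. The highest shAPT1 library lay inside the APT1wt range. CD151 was lower in shAPT1 than in APT1wt by -0.28 ± 0.08 (adjusted p = 0.020), a call lost without APT1wt replicate 2 (-0.23, adjusted p = 0.10), with library totals alone (-0.22, adjusted p = 0.067) and with the length offset (-0.27, adjusted p = 0.058). Against control it differed by -0.14 ± 0.08 in shAPT1 (adjusted p = 0.23) and by 0.14 ± 0.08 in APT1wt (adjusted p = 0.25).

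TSPAN9, found with the collagen receptor GPVI on platelets, had 11.1, 18.7 and 18.5 TPM in shAPT1, 10.2, 15.2 and 11.3 in APT1wt, and 11.03, 11.24 and 11.04 in control. One shAPT1 library, replicate 1, sat at the control level. The log2 fold change in shAPT1 was 0.22 ± 0.16 against control (adjusted p = 0.33) and 0.23 ± 0.15 against APT1wt (adjusted p = 0.30). Without shAPT1 replicate 1 it passed in both, at 0.43 (adjusted p = 0.0029) and 0.44 (adjusted p = 0.0023).

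TSPAN1, mostly known from epithelia and carcinomas (chr1:46175073-46185958, plus strand), had 2.04, 2.12 and 2.64 TPM in shAPT1, 0.758, 0.359 and 0.187 in APT1wt, and 1.26, 0.643 and 1.13 in control. These rested on 13, 27 and 28 reads in shAPT1, 4, 2 and 2 in APT1wt, and 11, 3 and 12 in control. The shAPT1 libraries were highest, and the APT1wt and control ranges overlapped. Its only protein-coding transcript held 27% of its mean TPM in shAPT1, 5.63% in APT1wt and 25.6% in control. The rest lay on other transcript models, by estimates from few reads. TSPAN1 was higher in shAPT1 than in APT1wt by 2.99 ± 0.48. No p is given for this fold, since all 3 shAPT1 libraries and no APT1wt library passed the filter. Against control it was higher in shAPT1 by 1.15 ± 0.39 (adjusted p = 0.044), with 3 shAPT1 and 2 control libraries past the filter. In APT1wt it was lower than in control by -1.85 ± 0.56. No p is given for this fold either, since no APT1wt library passed. The filter thus favours a difference in each of these comparisons. The shAPT1 call against control was lost in 14 of 19 alternatives, among them DESeq2 (adjusted p = 0.14), the replicate block (adjusted p = 0.057) and the omission of any library other than shAPT1 replicate 1, where it lay between 0.80 (adjusted p = 0.17, control replicate 2 omitted) and 1.40 (adjusted p = 0.054, control replicate 1 omitted). The APT1wt call against control was lost without control replicate 1 or 3 and without APT1wt replicate 2 or 3. It was also lost by DESeq2 and limma-voom, with the length offset and in the deposited table. TSPAN11 and TSPAN18 had 4 and 6 reads over all 9 libraries and were not tested.

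The TspanC8 group has 6 members, TSPAN5, TSPAN10, TSPAN14, TSPAN15, TSPAN17 and TSPAN33, all tested. In shAPT1 against control 2 were called, both higher, and in APT1wt against control 3 were called, all higher, where 12.8% and 11.8% of all tested genes were called higher. In shAPT1 against APT1wt 0 of 6 were called in the reported fit, where 25.1% of all tested genes were called, and 0 had an unadjusted p under 0.05. A fit corrected for the change of neighbouring genes, given below, called TSPAN5 lower there (-0.29, adjusted p = 0.0036). Summed over the 6 genes the level was 126 to 140 TPM in shAPT1, 131 to 146 TPM in APT1wt and 120 to 126 TPM in control.

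TSPAN15, which directs ADAM10 to N-cadherin (chr10:69451473-69507669, plus strand), had 9.03, 10.6 and 7.32 TPM in shAPT1, 8.003, 8.74 and 9.19 in APT1wt, and 5.03, 6.99 and 4.06 in control. Every library of shAPT1 and APT1wt stood above the control libraries. The log2 fold change against control was 0.63 ± 0.17 in shAPT1 (adjusted p = 0.012) and 0.80 ± 0.16 in APT1wt (adjusted p = 0.0027), with the control libraries shared, and -0.17 ± 0.15 between shAPT1 and APT1wt (adjusted p = 0.46). The shAPT1 call was lost without control replicate 3 (0.50, adjusted p = 0.071) and with the length offset (0.69, adjusted p = 0.051).

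TSPAN5, which escorts ADAM10 and favours the cleavage of Notch (chr4:98470367-98658629, minus strand), had 31.5, 32.6 and 27.9 TPM in shAPT1, 29.6, 31.0 and 29.9 in APT1wt, and 23.8, 27.0 and 27.3 in control. The control libraries were again below all others. Against the same controls it was higher by 0.23 ± 0.07 in shAPT1 (adjusted p = 0.019) and by 0.30 ± 0.07 in APT1wt (adjusted p = 0.0041), and shAPT1 differed from APT1wt by -0.07 ± 0.06 (adjusted p = 0.46). The length offset ended both calls (0.17, adjusted p = 0.22 in shAPT1; 0.23, adjusted p = 0.11 in APT1wt), as did the deposited table (adjusted p = 0.23 and 0.11), and the shAPT1 call was also lost without control replicate 1 or 2 (adjusted p = 0.051 and 0.076) or shAPT1 replicate 2 (adjusted p = 0.10) and in a fit of the 2 groups alone (adjusted p = 0.051).

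TSPAN14, the most abundant TspanC8 gene here and a partner of ADAM10 in Notch cleavage (chr10:80454166-80533123, plus strand), had 53.8, 54.4 and 64.1 TPM in shAPT1, 60.1, 66.5 and 64.0 in APT1wt, and 53.9, 51.8 and 51.9 in control. It was higher in APT1wt than in control by 0.25 ± 0.07 (adjusted p = 0.013), a call that did not hold without control replicate 2 or 3 (adjusted p = 0.079 and 0.065) or APT1wt replicate 3 (adjusted p = 0.066). In shAPT1 it differed from control by 0.12 ± 0.07 (adjusted p = 0.22) and from APT1wt by -0.13 ± 0.07 (adjusted p = 0.16).

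The other TspanC8 genes did not pass in any comparison. TSPAN17 had 28.1, 31.6 and 37.1 TPM in shAPT1, 31.4, 35.8 and 31.2 in APT1wt, and 33.9, 34.7 and 36.8 in control, at -0.17 ± 0.09 (adjusted p = 0.17), -0.10 ± 0.09 (adjusted p = 0.43) and -0.07 ± 0.09 (adjusted p = 0.59). TSPAN33, known from B cells and erythroid cells, had 3.07, 3.45 and 3.02 TPM in shAPT1, 1.98, 3.10 and 2.88 in APT1wt, and 2.80, 4.46 and 4.30 in control, at -0.24 ± 0.20 (adjusted p = 0.44), -0.45 ± 0.21 (adjusted p = 0.14) and 0.21 ± 0.21 (adjusted p = 0.51). TSPAN10, known from pigment cells and the eye, had 0.846, 0.532 and 0.814 TPM in shAPT1, 0.301, 0.597 and 0.603 in APT1wt, and 0.425, 0.718 and 0.345 in control, with log2 fold changes of 0.64 ± 0.39 (adjusted p = 0.26), 0.09 ± 0.42 (adjusted p = 0.91) and 0.55 ± 0.38 (adjusted p = 0.31). These 3 values stand for shAPT1 and APT1wt against control and shAPT1 against APT1wt.

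ADAM10 itself averaged 162 ± 4.4 TPM in shAPT1, 125 ± 3.1 TPM in APT1wt and 112 ± 12 TPM in control (SD, n = 3). It was higher in shAPT1 than in control by 0.50 ± 0.07 (adjusted p = 0.00016) and higher than in APT1wt by 0.28 ± 0.07 (adjusted p = 0.0086), both under every alternative. In APT1wt it was higher than in control by 0.21 ± 0.07 (adjusted p = 0.042), which did not hold, among others, without control replicate 1 (0.14, adjusted p = 0.17) and with library totals alone (adjusted p = 0.082). The summed TPM of the TspanC8 genes over that of ADAM10 was 0.758 to 0.886 in shAPT1, 1.06 to 1.14 in APT1wt and 1.02 to 1.21 in control, so the shAPT1 libraries lay below the rest. ADAM10 stands in both the ratio and the rise.

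Of the tetraspanins outside these groups, TSPAN13 changed most (chr7:16753535-16784536, plus strand). It had 3.71, 2.92 and 2.65 TPM in shAPT1, 1.27, 0.907 and 0.988 in APT1wt, and 0.974, 1.15 and 0.992 in control, on 62, 69 and 59 reads in shAPT1, 30, 15 and 23 in APT1wt, and 18, 19 and 21 in control. The shAPT1 libraries stood apart from both other groups, which overlapped. It was higher in shAPT1 by 1.50 ± 0.23 against control (adjusted p = 0.00033) and by 1.48 ± 0.23 against APT1wt (adjusted p = 0.00030), under every alternative, and APT1wt differed from control by 0.02 ± 0.26 (adjusted p = 0.97).

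TSPAN12, which binds Norrin and its receptor FZD4 in β-catenin signalling (chr7:120787320-120858402, minus strand), had 6.50, 4.44 and 5.46 TPM in shAPT1, 2.77, 4.09 and 3.85 in APT1wt, and 6.07, 7.86 and 4.75 in control. The APT1wt libraries were the lowest, with no overlap. TSPAN12 was lower in APT1wt than in control by -0.60 ± 0.19 (adjusted p = 0.029) and higher in shAPT1 than in APT1wt by 0.74 ± 0.18 (adjusted p = 0.0086), while shAPT1 differed from control by 0.13 ± 0.18 (adjusted p = 0.63). The sign of that last value is opposite to that of the mean TPM, 5.47 in shAPT1 and 6.23 in control. With the length offset it was -0.25 (adjusted p = 0.49), and in the deposited table -0.24 (adjusted p = 0.52). The first call was lost without control replicate 2 or 3 (-0.45 with adjusted p = 0.14, and adjusted p = 0.050) or any of the APT1wt libraries (adjusted p = 0.09, 0.082 and 0.051). The length offset (0.54) and the deposited table (0.53) each ended the second, both at an adjusted p of 0.12.

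TSPAN2, known from oligodendrocytes (chr1:115048011-115089500, minus strand), had 3.55, 2.82 and 3.89 TPM in shAPT1, 3.62, 5.61 and 5.17 in APT1wt, and 3.28, 3.08 and 4.25 in control. One APT1wt library, replicate 1, lay inside both other ranges. The gene was higher in APT1wt than in control by 0.56 ± 0.16 (adjusted p = 0.017) and lower in shAPT1 than in APT1wt by -0.52 ± 0.15 (adjusted p = 0.022), with 0.04 ± 0.16 for shAPT1 against control (adjusted p = 0.89). Without APT1wt replicate 3 neither call held, at 0.42 (adjusted p = 0.11) and -0.38 (adjusted p = 0.13). The APT1wt call was also lost without control replicate 1 (adjusted p = 0.071), and the other without shAPT1 replicate 2 or 3 (adjusted p = 0.075 and 0.057) or APT1wt replicate 2 (adjusted p = 0.059). Both failed with the length offset (adjusted p = 0.17 and 0.076) and in the deposited table (adjusted p = 0.17 and 0.087).

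TSPAN3 had 124, 126 and 122 TPM in shAPT1, 98.4, 115 and 112 in APT1wt, and 93.1, 116 and 111 in control. The shAPT1 libraries lay above all others, but the log2 fold changes of 0.17 ± 0.07 against control (adjusted p = 0.099) and 0.15 ± 0.07 against APT1wt (adjusted p = 0.16) did not pass. TSPAN31, which lies next to CDK4 and is amplified with it in sarcomas, had 12.8, 10.9 and 8.93 TPM in shAPT1, 10.1, 10.3 and 9.91 in APT1wt, and 12.4, 10.6 and 15.0 in control. Of its exonic bases 25.4% overlap CDK4 on the opposite strand, and the use of strand in counting is not given, so reads of the 2 genes may not have been told apart. The same holds for smaller overlaps, of 9.0% for CD63 and 6.9% for CD82 with antisense models and of 6.5% for CD151 with POLR2L. TSPAN7, a gene of X-linked intellectual disability, had 0.662, 0.984 and 1.29 TPM in shAPT1, 0.984, 2.28 and 1.70 in APT1wt, and 1.14, 1.20 and 2.14 in control, with 21.7% of its exonic bases shared with another gene model on the same strand. Neither passed in any comparison.

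Most members tied to other tissues had few reads. ROM1, a structural protein of photoreceptor discs, had 0.952, 0.477 and 1.28 TPM in shAPT1, 0.949, 1.47 and 2.85 in APT1wt, and 1.51, 2.52 and 1.19 in control, with 24.8% of its exonic bases opposite those of EML3; it passed in no comparison. Its partner PRPH2 had 8 reads over all 9 libraries. The uroplakins UPK1A and UPK1B of the bladder lining had 2 and 4.03 reads, and the leukocyte genes CD37, CD53 and TSPAN32 had 25.2, 2 and 3. TSPAN16 and TSPAN19 had 1 and 29.7, and TSPAN19 reached 1.43 TPM in 1 library. Other than ROM1, the genes of this paragraph were not tested.

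The marker lists of those tissues were read beside them. Of 14 leukocyte markers 5 averaged at least 1 TPM, and the list summed to 305 to 340 TPM in shAPT1, 344 to 419 in APT1wt and 544 to 693 in control. HLA-DRA and CD74, antigen-presentation genes that tumour lines can express, carried most of it at 52.1 and 206 TPM in shAPT1, 46.1 and 229 in APT1wt, and 155 and 423 in control. Other genes of the list differed in direction: LCP1, an actin-bundling protein, averaged 41.8 TPM in shAPT1, 61.9 in APT1wt and 10.1 in control, and LAPTM5, a lysosomal membrane protein, 20.5 in shAPT1, 47.6 in APT1wt and 44.8 in control. Among the defining markers, CD3E and MS4A1 were at 0 in shAPT1, MS4A1 and SPI1 in APT1wt, and PTPRC, CD3E, MS4A1 and SPI1 in control. Of 5 urothelial markers only PPARG averaged at least 1 TPM over all libraries, at 23.5 TPM in shAPT1, 24.2 in APT1wt and 15.0 in control. Of 6 photoreceptor markers 0 had such an average. The part of these markers in the tetraspanin values was not tested.

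Chromosomes 11 and 12 each carry 7 tetraspanin genes. On chromosome 11, CD151 and TSPAN4 lie 2976 bases apart on the same strand. All 5 tested genes of chromosome 11, CD151, TSPAN4, CD81, CD82 and ROM1, had a log2 fold change below 0 in shAPT1 against control, 3 of them called lower, and in shAPT1 against APT1wt, 4 of them called lower. Of all tested genes 11.6% and 12.4% were called lower in these comparisons. On chromosome 12, too, all 5 tested tetraspanins lay below 0 in APT1wt against control, but none was called. Among them were TSPAN9 at -0.008 and CD63 at -0.068, beside a median of -0.004 over all tested genes, and TSPAN8 with almost no reads in either group. The tested genes nearest on either side of a tetraspanin were also read, 50 a side or fewer near a chromosome end. Their median log2 changes were -0.11 around CD151 and TSPAN4 and -0.08 around CD81 in shAPT1 against control. In shAPT1 against APT1wt they were -0.17, -0.17 and -0.15. CD151 and TSPAN4 lie so close that their neighbours are largely the same genes, so their medians are not separate readings. How many neighbours CD81 shares with them was not counted. Around CD82 the medians were -0.02 and -0.04.

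With the median shift of these neighbours taken out of each library, CD82 and TSPAN4 stayed called in both comparisons and CD81 in shAPT1 against control. The calls of CD151 and CD81 in shAPT1 against APT1wt were lost, at -0.12 (adjusted p = 0.15) and -0.09 (adjusted p = 0.23). In APT1wt against control the neighbours of TSPAN12 moved by -0.25, and its own call was lost, at -0.35 (adjusted p = 0.19); the neighbours of TSPAN2 moved by 0.16, and its call was lost at 0.41 (adjusted p = 0.086). TSPAN6 was lost in shAPT1 against APT1wt, where its neighbours moved by 0.21, at 0.21 (adjusted p = 0.061), and TSPAN1 in shAPT1 against control, at 1.13 (adjusted p = 0.051). TSPAN13 stayed called in shAPT1 against control and against APT1wt, where its neighbours moved by -0.01 and 0.23. The correction brought in 2 calls in shAPT1 against APT1wt, TSPAN3 higher at 0.25 (adjusted p = 0.014) and TSPAN5 lower at -0.29 (adjusted p = 0.0036). DNA copy number was not measured, and its part in these values was not tested.

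**Figure D4:**
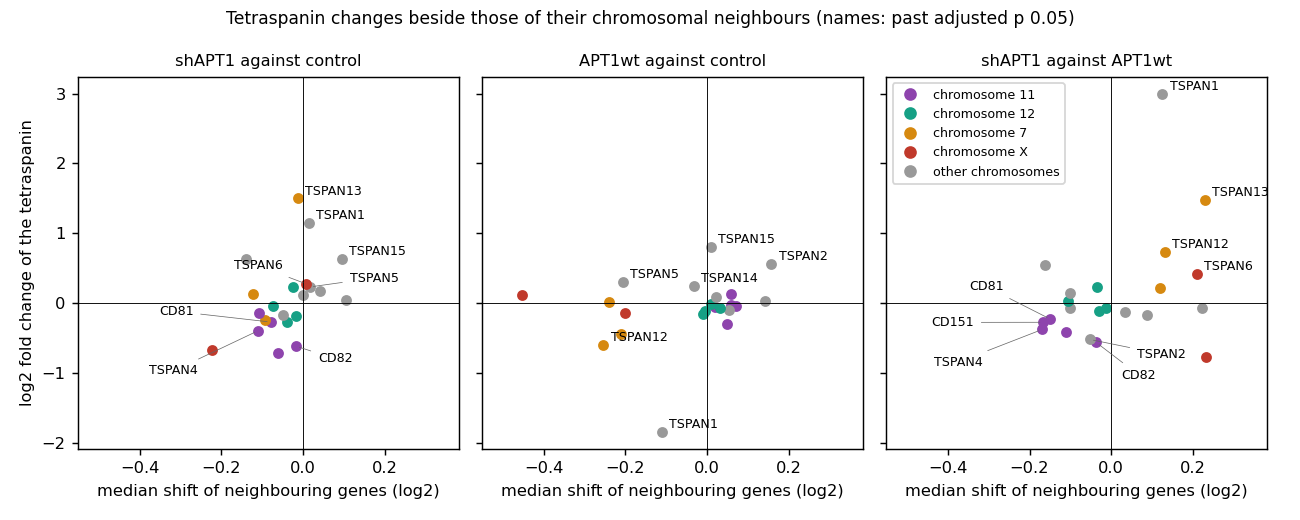
Log2 fold change of each of 22 tested tetraspanins (vertical) against the median log2 change of up to 50 tested genes nearest on either side (horizontal), coloured by chromosome, with names for genes at an adjusted p under 0.05. CD151, TSPAN4 and CD81 sit at -0.17 to -0.15 on the horizontal axis in shAPT1 against APT1wt, and CD82 and TSPAN13 at -0.04 and 0.23. Named genes were picked by their own change, so their distance from a median of many genes is no test.

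Salmon divides a gene's reads between transcripts, and these estimates, less certain than the gene's total, were not tested. CD82 was carried by 4 transcripts. CD82-002 (ENST00000342935.7) had 25.96, 35.7 and 40.1 TPM in shAPT1, 46.2, 48.9 and 56.9 in APT1wt, and 38.5, 43.7 and 51.1 in control. CD82-014 (ENST00000530931.1), annotated as a processed transcript without a coding frame, had 13.9, 21.2 and 20.6 TPM in shAPT1, 27.0, 24.9 and 23.5 in APT1wt, and 30.9, 27.0 and 40.2 in control. CD82-011 averaged 22.9 TPM in shAPT1, 34.0 in APT1wt and 32.5 in control, so each of these 3 had its lowest mean in shAPT1.

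For CD81 the main coding transcript CD81-001 (ENST00000263645.9) had 111, 126 and 128 TPM in shAPT1, 128, 132 and 139 in APT1wt, and 162, 147 and 158 in control. The control libraries stood above the rest, and the transcript held 67.4% of the gene's TPM in shAPT1, 66.9% in APT1wt and 77.0% in control. A second coding transcript, CD81-017, averaged 33.9 ± 19 TPM in shAPT1, 42.4 ± 7.0 in APT1wt and 19.2 ± 12 in control. CD63 was carried by CD63-009 (ENST00000546939.5), at 257, 292 and 262 TPM in shAPT1, 225, 218 and 238 in APT1wt, and 240.5, 249 and 232 in control, the shAPT1 libraries above all others. A CD63 transcript annotated for nonsense-mediated decay, CD63-013, averaged 72.5 ± 26 TPM in shAPT1, 73.0 ± 8.9 in APT1wt and 70.7 ± 9.4 in control.

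A few minor transcripts were listed at or near 0 in 1 group. CD9-010 was at 0 in all 3 shAPT1 libraries, beside 5.76, 6.21 and 4.94 TPM in APT1wt and 2.54, 13.3 and 8.45 in control. TSPAN15-003, a retained intron, was at 0 in the 3 control libraries, with 3.37, 5.19 and 0 TPM in shAPT1 and 2.35, 0 and 2.45 in APT1wt. The coding TSPAN15-001 alone had 5.24, 5.39 and 7.04 TPM in shAPT1, 5.31, 8.04 and 6.74 in APT1wt, and 3.61, 4.33 and 3.14 in control, with the control libraries below all others. TSPAN9-009 had 1.11, 1.87 and 1.59 TPM in shAPT1, 0.394, 0.386 and 0.258 in APT1wt, and 0.895, 0.767 and 0.828 in control, without overlap. For TSPAN6, TSPAN6-001 gave 89.3%, 89.9% and 88.2% of the TPM in shAPT1, APT1wt and control.

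**Figure D5:**
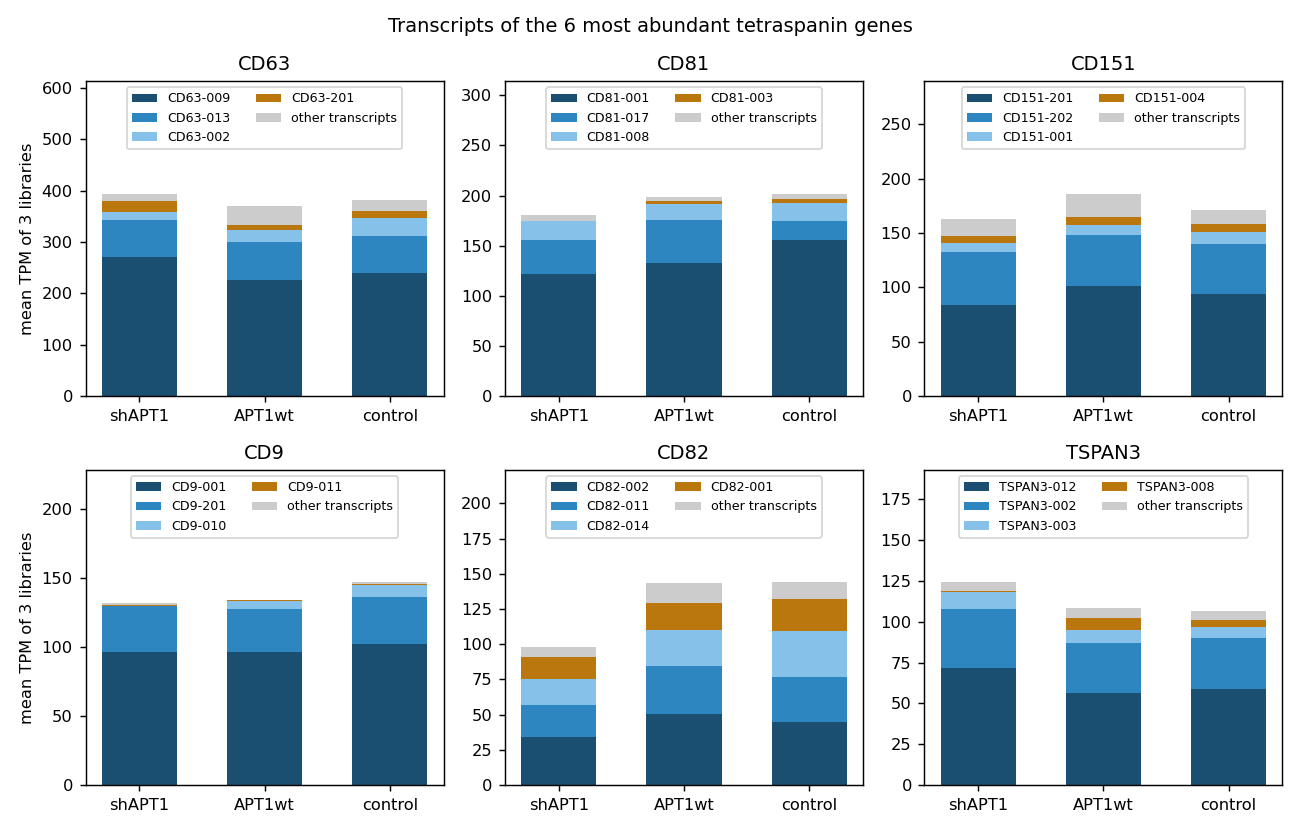
Mean TPM over 3 libraries of the 4 most abundant transcripts of each of the 6 most abundant tetraspanin genes, stacked, with the remaining transcripts in grey; from left to right shAPT1, APT1wt and control. CD82 is lower in shAPT1 in each of its 4 main transcripts, and CD81-001 averages 121 TPM in shAPT1 and 155 TPM in control.

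The proteins that work with tetraspanins were read from a list of 29 partners, 22 of them tested. In shAPT1 against control 8 were higher and 2 lower, with a median log2 change of 0.14. In APT1wt against control 6 were higher and 1 lower, with a median of 0.10, and in shAPT1 against APT1wt 2 were higher and 6 lower, with a median of -0.06. The share of all tested genes called was 24.4%, 23.4% and 25.1%, and the median over all tested genes 0.00, as above. With the length offset 4 partners were called in shAPT1 against control and 4 in shAPT1 against APT1wt, where 2308 and 2363 of all 15233 genes were called. The partner CDH1 was called higher in shAPT1 and in APT1wt against control. Those calls were lost in 12 and 7 of 20 alternatives.

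Among the integrins, ITGA6, the laminin-binding chain that pairs with CD151, averaged 182 ± 3.6 TPM in shAPT1, 173 ± 6.1 in APT1wt and 138 ± 22 in control, at 0.33 ± 0.08 (adjusted p = 0.0071) and 0.34 ± 0.08 (adjusted p = 0.0061) against the shared controls. Its APT1wt call was lost with the shift of its neighbours removed (adjusted p = 0.059). ITGB4 averaged 24.96 ± 7.69 TPM in shAPT1, 41.4 ± 6.1 in APT1wt and 18.9 ± 0.99 in control. It was higher in APT1wt than in control by 1.17 ± 0.17 (adjusted p = 0.00022) and lower in shAPT1 than in APT1wt by -0.71 ± 0.17 (adjusted p = 0.0072). ITGA3 and ITGB1 passed in no comparison, with ITGA3 at -0.04 ± 0.15 in shAPT1 (adjusted p = 0.87) and 0.23 ± 0.15 in APT1wt (adjusted p = 0.29), and ITGB1 at -0.07 ± 0.07 (adjusted p = 0.50) and -0.02 ± 0.07 (adjusted p = 0.88).

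The immunoglobulin-domain partners of CD9 and CD81 differed among themselves. IGSF8 (EWI-2) averaged 9.91 ± 1.6 TPM in shAPT1, 9.79 ± 0.62 in APT1wt and 10.1 ± 0.42 in control and passed in no comparison (-0.11 ± 0.12, adjusted p = 0.54 in shAPT1; -0.04 ± 0.12, adjusted p = 0.86 in APT1wt). PTGFRN averaged 0.313 ± 0.089 TPM in shAPT1, 0.730 ± 0.20 in APT1wt and 0.180 ± 0.26 in control. It had 10, 22 and 14 reads in shAPT1, 30, 26 and 31 in APT1wt, and 1, 2 and 4 in control. On these it was higher by 2.44 ± 0.46 in shAPT1 and 3.39 ± 0.42 in APT1wt. No p is given for either, since no control library passed the filter, which therefore favours a difference. In TPM, control replicate 3 (0.486) lay above every shAPT1 library. With the length offset the shAPT1 value did not pass (2.06, adjusted p = 0.090). IGSF3 was higher by 1.76 ± 0.24 in shAPT1 (adjusted p = 0.00013) and 2.55 ± 0.23 in APT1wt (adjusted p = 3.0e-06), at 2.15 ± 0.98, 2.55 ± 0.42 and 0.963 ± 0.60 TPM in shAPT1, APT1wt and control; its shAPT1 call too was lost with the length offset (1.13, adjusted p = 0.096).

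Of the other partners, MMP14, the membrane metalloprotease that CD63 and CD151 bind, averaged 130 ± 15 TPM in shAPT1, 159 ± 7.1 in APT1wt and 201 ± 26 in control. It was lower by -0.69 ± 0.07 in shAPT1 (adjusted p = 1.5e-05) and by -0.32 ± 0.07 in APT1wt (adjusted p = 0.0067), and lower in shAPT1 than in APT1wt by -0.38 ± 0.07 (adjusted p = 0.0022). CD44, the hyaluronan receptor, averaged 675 ± 23 TPM in shAPT1, 751 ± 27 in APT1wt and 866 ± 95 in control, and was lower in shAPT1 against control by -0.66 ± 0.08 (adjusted p = 2.7e-05) and against APT1wt by -0.51 ± 0.08 (adjusted p = 0.00026). ZDHHC2, a palmitoyltransferase of CD9 and CD151, averaged 29.7 ± 0.45 TPM in shAPT1, 30.4 ± 3.0 in APT1wt and 31.1 ± 1.9 in control, with log2 fold changes of 0.14 ± 0.08 (adjusted p = 0.23) and 0.03 ± 0.08 (adjusted p = 0.85).

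Of 20 genes of exosome formation, all tested, 6 were higher and 3 lower in shAPT1 against control, 4 higher and 0 lower in APT1wt against control, and 4 higher and 3 lower in shAPT1 against APT1wt, with medians of 0.09, 0.09 and -0.04. All tested genes were called at 24.4%, 23.4% and 25.1% in these comparisons. SDC4, a syndecan that binds syntenin, averaged 103 ± 27 TPM in shAPT1, 149 ± 22 in APT1wt and 188 ± 14 in control, and was lower by -0.95 ± 0.14 in shAPT1 against control (adjusted p = 0.00017). RAB31, which takes part in the sorting of receptors into exosomes, averaged 30.9 ± 1.1 TPM in shAPT1, 56.6 ± 16 in APT1wt and 41.0 ± 6.2 in control. It was lower in shAPT1 by -0.40 ± 0.09 (adjusted p = 0.0047) and higher in APT1wt by 0.48 ± 0.09 (adjusted p = 0.0013), and the length offset ended both (adjusted p = 0.085 and 0.078). It was also lower in shAPT1 than in APT1wt by -0.88 ± 0.09 (adjusted p = 8.7e-06). FLOT1 averaged 160 ± 26 TPM in shAPT1, 118 ± 3.3 in APT1wt and 114 ± 4.3 in control, higher by 0.41 ± 0.10 in shAPT1 against control (adjusted p = 0.0068).

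The small GTPase RAB27B, which docks endosomes at the membrane, was higher in shAPT1 than in control by 0.63 ± 0.14 (adjusted p = 0.0048). With the length offset it did not pass (adjusted p = 0.26), nor in the deposited table, nor with the shift of its neighbours removed. VPS4B, an ATPase of membrane scission, averaged 32.1 ± 5.0 TPM in shAPT1, 30.7 ± 3.2 in APT1wt and 20.5 ± 1.3 in control, at 0.45 ± 0.08 (adjusted p = 0.0011) and 0.42 ± 0.08 (adjusted p = 0.0020). With the shift of its neighbours removed it did not pass in either, at 0.07 (adjusted p = 0.59) and 0.16 (adjusted p = 0.19). SDCBP, the syntenin gene, and PDCD6IP, which encodes ALIX, had log2 fold changes of -0.14 ± 0.09 (adjusted p = 0.28) and 0.14 ± 0.06 (adjusted p = 0.10) in shAPT1 against control.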

How the data were processed

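Total RNA of 9 MDA-MB-231 samples was sequenced, 3 each of shAPT1, APT1wt and control. Per the submitters' processing notes, FastQC, Salmon and DESeq2 were used with build GRCh38.p10, without versions. For each library the authors deposited Salmon's estimated counts (expected counts) as well as the TPM of 199324 transcripts, and a gene table of signal scaled between libraries in a way not given in the sources used here. Estimated counts were summed over the transcripts of each gene and rounded, and TPM was summed for levels. Genes kept by filterByExpr were scaled by TMM and tested in 1 quasi-likelihood fit of all 9 libraries (edgeR 4.0.16, limma 3.58.1, R 4.3.3), with Benjamini-Hochberg adjustment over 15233 genes at 0.05. The steps were tested on simulated data. Positions are from GENCODE 29 (GRCh38). Values were tabulated and drawn in Python 3.11.15 with pandas 2.3.3, numpy 2.4.6 and matplotlib 3.10.9.

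The tetraspanins, the role groups and the lists of partners, exosome genes and markers were chosen with earlier results of these data known. Every tetraspanin with a mean of 1 TPM in a group was described in every library. From the partner and exosome lists, up to 6 called genes a comparison were eligible by size, besides ADAM10, ITGA3, ITGA6, ITGB1, IGSF8, PTGFRN and ZDHHC2; SDCBP and PDCD6IP and the markers given as TPM were named outside that rule. Depth limits genes with few reads, and counting intervals cover counting error only.

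Deviations from the group means correlated between same-numbered APT1wt and control libraries at 0.24, 0.18 and 0.16. With shAPT1 they did not throughout (-0.07, 0.01 and -0.04 with control, 0.18, 0.14 and -0.04 with APT1wt). The unlike-numbered shAPT1 replicate 3 and APT1wt replicate 2 reached 0.204. The labels state no pairing, and the reported fit used no block. As alternatives the fit was repeated with DESeq2 1.42.0, with limma-voom, with RLE scaling, with library totals alone, with no filter, with at least 20 reads in 3 libraries, with a length offset, on the deposited table as log2(value + 1) in limma-trend, on just the 2 groups in question, with the replicate number as a block, without each library in turn, and with the median shift of the 50 tested genes nearest on either side removed.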

Additional observations from a re-analysis of the deposited data

Results flagged for a closer look

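TSPAN1 moved in opposite directions against the shared controls. It was higher in shAPT1 and lower in APT1wt, and shAPT1 against APT1wt gave a log2 fold change of 2.99 ± 0.48 in the edgeR quasi-likelihood fit. It had 13, 27 and 28 reads in shAPT1, 4, 2 and 2 in APT1wt, and 11, 3 and 12 in control. Since the gene was picked for its opposite calls, this value describes it and is no independent test. Each of the calls against control was lost in several alternatives, and most of the gene's estimated TPM lay on transcripts not annotated as protein-coding. The gene passed the filter on low counts through shAPT1 and control libraries only, so no p is given for either comparison with APT1wt.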

How the results depend on the processing

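No call of a tetraspanin reversed its direction under any alternative, and 10 of 25 calls held in every alternative that tested the gene. Of these, 2 were of TSPAN8, which the filter kept through shAPT1 libraries alone. Another was of TSPAN1 in shAPT1 against APT1wt, where no APT1wt library passed the filter. With the length offset, calls of tetraspanins numbered 4 in shAPT1 against control (reported 9), 3 in APT1wt against control (reported 6) and 6 in shAPT1 against APT1wt (reported 10); the deposited table gave 3 in APT1wt against control. Partners numbered 4 in shAPT1 against control (reported 10) and 4 in shAPT1 against APT1wt (reported 8) with the length offset, and 4 and 4 with the deposited table. The cause was not tested; the length offset and the deposited table also call fewer of all genes. Leaving out each library in turn gave 5 to 9, 2 to 6 and 7 to 11 tetraspanins, and 8 to 12, 5 to 11 and 5 to 8 partners, in the order of comparison used above. Calls over all genes then ranged from 2616 to 4096, 2298 to 4825 and 2573 to 4104. The count of 11 partners in APT1wt against control came without shAPT1 replicate 1, and both counts of 5 in the last comparison without APT1wt replicate 1 or 2. With the replicate number as a block the tetraspanin counts were 8, 6 and 10. The block ended the TSPAN1 call in shAPT1 against control (adjusted p = 0.057). It changed no tetraspanin call in APT1wt against control, though the labels do not say that the numbers are pairs. With library totals alone, 2628 of all genes were higher and 1327 lower in shAPT1 against APT1wt, beside 1941 and 1888 in the reported fit. LYPLA1 kept its direction and call throughout. Genes under about 10 reads in a library of median depth, 10 of the 33 tetraspanins, could not be tested.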
